A study of Mus musculus with 14 samples.

Results

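Tendon genes were followed in RNA-seq libraries of mouse skeletal muscle, as the 10 genes Tnmd, Scx, Mkx, Fmod, Comp, Thbs4, Chad, Kera, Col11a1 and Col12a1. They were chosen by their symbols, without use of measured values in the rule but with earlier results of these data known. They were 10 of the 54532 genes in the deposited tables. All 10 passed the filter on low counts, which left 15458 genes for testing. The tables hold 14 libraries of FVB/N male mice, described as RNA of soleus and gastrocnemius, and the labels do not say which muscle a library came from. EC-Myc OE mice (OE) carried Tet-O-Myc, a human c-Myc transgene, with Cdh5-tTA, which drives it in endothelial cells once doxycycline is withdrawn, here at 4 to 6 weeks of age. CT littermates carried Tet-O-Myc without the transactivator. The transgene lies on the Y chromosome, so that only males were studied. Mice ate a control diet (CTD) or a high-fat western diet (WD) for 20 weeks by the labels and methods, whereas the paper's text on the transcriptome gives 10. By the labels, CT-CTD and CT-WD hold 3 libraries each and OE-CTD and OE-WD hold 4 each, while a legend in the paper gives other group sizes for the diets. The number after a group's name is the replicate.

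Tendon is built by tenocytes, which lay down parallel fibrils of type I collagen and the proteins that set the width and spacing of those fibrils. In muscle, such cells lie at the myotendinous junction and along the tendon sheets that run into the belly. Scx and Mkx encode transcription factors of the tendon lineage, Tnmd a membrane protein of mature tenocytes, and the other members encode proteins of the tendon matrix.

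Summed counts per library were between 21833839 and 28519159, and levels are given in CPM, counts scaled to a common library total, after TMM scaling, a correction for library composition. Muscle fibre markers were present in all 14 libraries: 12 of 12 listed genes passed the filter, Acta1 was the most abundant in FPKM, none was at 0, and the list summed to between 131830 and 190600 CPM. Endothelial markers, 10 of 10 tested, summed to between 361 and 506 CPM, with Cdh5 highest in FPKM. OE-CTD 4 and OE-WD 4 stood apart from the others. Their scaling factors were 0.888 and 0.899, against 0.945 to 1.07 in the other 12 libraries. The mitochondrial share of counts was 14.9% (95% Wilson interval 14.9 to 14.9%) in OE-CTD 4 and 14.5% (95% Wilson interval 14.5 to 14.5%) in OE-WD 4, and lay between 9.66% (95% Wilson interval 9.65 to 9.67%) in CT-WD 3 and 12.8% (95% Wilson interval 12.7 to 12.8%) in OE-CTD 1 among the other 12. These intervals cover counting error only. For the tendon genes, CT-WD 1 stood apart from CT-WD 2 and 3, and results are given with and without it, a choice made after the data were seen. The sample codes of CT-CTD 1 and CT-WD 1 are numbered apart from the consecutive codes of the other 4 CT libraries. The codes of OE-CTD 1 to 3 share a number that OE-CTD 4 does not have, and those of the 4 OE-WD libraries share another. What the codes stand for is not stated.

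A tendon index was taken for each library as the median, over the 10 members, of log2 CPM relative to the gene's mean over the 14 libraries. It was -0.24, -1.34 and -0.86 in CT-CTD 1 to 3, 1.05, -2.10 and -2.30 in CT-WD 1 to 3, 0.54, 1.03, 0.93 and 0.13 in OE-CTD 1 to 4 and 0.54, 1.67, 0.97 and 0.09 in OE-WD 1 to 4. The 8 EC-Myc OE libraries were all above 0 and 5 of the 6 CT libraries below it, and CT-WD 1 ranked 2 of 14, next after OE-WD 2. Group means were -0.81 ± 0.55 (SD, n = 3) in CT-CTD, -1.12 ± 1.87 (SD, n = 3) in CT-WD, 0.66 ± 0.41 (SD, n = 4) in OE-CTD and 0.82 ± 0.67 (SD, n = 4) in OE-WD. The CT means differed by less than the SD of either CT group, and the OE means by less than the SD of either OE group. Between the highest and the lowest library the index spanned a factor of 15.7, and the FPKM of the members summed to between 32.0 in CT-WD 2 and 337 in OE-WD 2. In bulk RNA, fewer tendon cells and less tendon RNA per cell cannot be told apart.

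**Figure D1:**
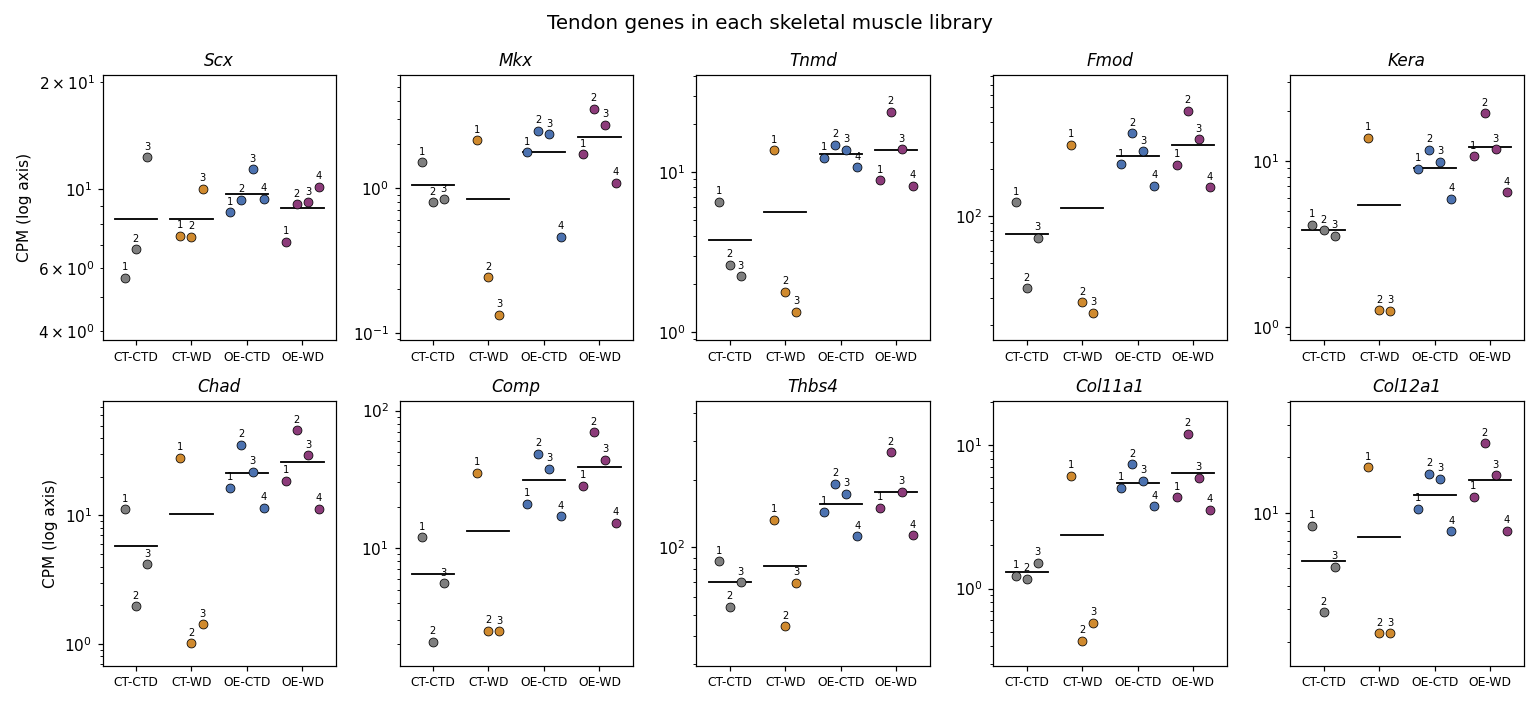
Level of each tendon gene in CPM (log axis, scaled for each gene) by group, with each point a library numbered by replicate and each bar the mean of the group. Apart from Scx, CT-WD 1 sits with the OE libraries while CT-WD 2 and 3 lie at or near the bottom.

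The members moved across libraries by unequal amounts. The ratio of the highest to the lowest library in CPM was 45.3 for Chad, 33.1 for Comp, 27.4 for Col11a1 and 26.6 for Mkx, and between 6.02 (Thbs4) and 19.7 (Fmod) for the other members apart from Scx, at 2.18. Over the 12746 tested genes with a mean of at least 1 CPM, the median of this ratio was 1.65, and it exceeded 10 for 160 genes (1.26%). OE-WD 2 was the highest library for 9 of the 10 members, and the lowest for those 9 was CT-WD 2, CT-WD 3 or CT-CTD 2. Across the 14 libraries, the 36 pairs among the 9 members other than Scx had a Pearson r of log2 CPM between 0.825 and 0.994, and between 0.831 and 0.994 after the group means were subtracted. Within a library all these genes share its depth and scaling, and the values describe the libraries only. Most alike were Fmod and Chad (r = 0.994), and the closest partner of Tnmd was Fmod (r = 0.973) and of Thbs4 was Comp (r = 0.964). Col12a1 was closest to Chad (r = 0.993), Kera to Col11a1 (r = 0.976) and Mkx to Kera (r = 0.925). Scx stood outside this group, with r between -0.03 and 0.239 with the other 9, Thbs4 being its closest partner, and between -0.371 and -0.0437 after the group means were subtracted.

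On the FPKM scale, which divides by gene length, the mean level over the libraries was highest for Fmod (63.5) and Thbs4 (42.4). Chad (11), Comp (8.94), Tnmd (7.73), Scx (4.82) and Kera (3.83) followed, and Col12a1 (0.762), Mkx (0.431) and Col11a1 (0.357) were under 1 FPKM. Ranges of neighbours in this order overlapped: Fmod alone ran from 7.95 to 156 FPKM and Chad from 0.663 to 29.9.

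Scx (scleraxis, ENSMUSG00000034161, chr15:76457452-76459458 on GRCm38, 2 exons in its longest transcript) encodes a basic helix-loop-helix factor that switches on tendon collagen genes and Tnmd. Scx was at 5.66, 6.78 and 12.3 CPM for libraries 1 to 3 of CT-CTD, at 7.41, 7.34 and 10 for those of CT-WD, at 8.63, 9.34, 11.4 and 9.39 for libraries 1 to 4 of OE-CTD and at 7.12, 9.08, 9.19 and 10.2 for those of OE-WD. CT-CTD held both its highest and its lowest library, and all 4 groups overlapped. The log2 fold change with its standard error was 0.23 ± 0.22 for OE-CTD against CT-CTD (edgeR adjusted p = 0.679) and 0.10 ± 0.22 for OE-WD against CT-WD (edgeR adjusted p = 0.850). Scx lies wholly inside Bop1, a gene of ribosome assembly on the other strand, with 0 exonic bases in common. Bop1 had between 663 and 1048 counts per library, and since the strand setting is not stated, reads from its introns cannot be told apart from reads of Scx. Mkx (mohawk, ENSMUSG00000061013, chr18:6910459-7004780, 7 exons) encodes a homeobox factor needed for collagen fibril growth in tendon. Mkx was at 1.5, 0.795 and 0.834 CPM for libraries 1 to 3 of CT-CTD, at 2.13, 0.242 and 0.133 for those of CT-WD, at 1.76, 2.47, 2.35 and 0.459 for libraries 1 to 4 of OE-CTD and at 1.71, 3.54, 2.72 and 1.08 for those of OE-WD. CT-WD 2 and 3 were lowest and OE-WD 2 was highest, while OE-CTD 4 was below all CT-CTD libraries, and the groups overlapped on both diets. The log2 fold change of Mkx was 0.77 ± 0.69 for OE-CTD against CT-CTD and 1.37 ± 0.70 for OE-WD against CT-WD, with edgeR adjusted p = 0.652 and 0.337. Mkx had 3 counts in its lowest library, the fewest of any member, and a same-strand transcript absent from the count table shares 201 of its exonic bases (4.91%).

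Tnmd (tenomodulin, ENSMUSG00000031250, chrX:133850980-133865577, 7 exons) encodes a type II membrane protein of mature tenocytes that supports tendon cell growth and fibril maturation. Tnmd stood at 6.49, 2.64 and 2.22 CPM for libraries 1 to 3 of CT-CTD, at 13.7, 1.79 and 1.33 for those of CT-WD, at 12.2, 14.8, 13.8 and 10.7 for libraries 1 to 4 of OE-CTD and at 8.87, 23.7, 13.8 and 8.20 for those of OE-WD. All 4 OE-CTD libraries lay above all 3 CT-CTD libraries, whereas on western diet CT-WD 1 lay among the OE-WD libraries and CT-WD 2 and 3 lay far below. Group means were 3.78 ± 2.35 (SD, n = 3) in CT-CTD, 5.60 ± 6.99 (SD, n = 3) in CT-WD, 12.9 ± 1.81 (SD, n = 4) in OE-CTD and 13.6 ± 7.14 (SD, n = 4) in OE-WD. The log2 fold change was 1.77 ± 0.63 for OE-CTD against CT-CTD (edgeR adjusted p = 0.169) and 1.25 ± 0.61 for OE-WD against CT-WD (edgeR adjusted p = 0.310), and neither passed the test. Without CT-WD 1 these were 1.77 and 3.13. Leaving out CT-WD 3 instead gave the lowest western diet value of the single omissions, 0.79.

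Fmod, Kera and Chad encode small proteoglycans and relatives with leucine-rich repeats. Fmod (fibromodulin, ENSMUSG00000041559, chr1:134037254-134048277, 3 exons) binds type I collagen and guides its cross-linking. Fmod was at 123, 34.4 and 72.6 CPM for libraries 1 to 3 of CT-CTD, at 287, 28.0 and 24.0 for those of CT-WD, at 215, 339.7, 261 and 157 for libraries 1 to 4 of OE-CTD and at 213, 473, 312 and 153 for those of OE-WD. OE-CTD was entirely above CT-CTD, with the nearest pair OE-CTD 4 and CT-CTD 1, while CT-WD 1 lay inside the range of OE-WD. Group means were 76.6 ± 44.4 (SD, n = 3) in CT-CTD, 113 ± 151 (SD, n = 3) in CT-WD, 243 ± 77.2 (SD, n = 4) in OE-CTD and 288 ± 139.7 (SD, n = 4) in OE-WD. For OE-CTD against CT-CTD the log2 fold change was 1.67 ± 0.71 (edgeR adjusted p = 0.256), and for OE-WD against CT-WD it was 1.35 ± 0.70 (edgeR adjusted p = 0.348). Chad (chondroadherin, ENSMUSG00000039084, chr11:94565047-94569127, 4 exons), a protein of cartilage and tendon that binds collagen and cells, stood at 11.2, 1.97 and 4.17 CPM for libraries 1 to 3 of CT-CTD, at 28.2, 1.01 and 1.42 for those of CT-WD, at 16.3, 35.7, 21.8 and 11.4 for libraries 1 to 4 of OE-CTD and at 18.7, 45.9, 29.3 and 11.2 for those of OE-WD. It had the widest span of the 10 members, and its lowest values were again those of CT-WD 2 and 3. The log2 fold change of Chad was 1.89 ± 0.87 on control diet and 1.33 ± 0.83 on western diet (edgeR adjusted p = 0.305 and 0.448). Chad lies inside Acsf2, an acyl-CoA synthetase gene on the other strand with 77 to 301 counts and 0 exonic bases in common, whose intronic reads cannot be told apart from those of Chad. Kera (keratocan, ENSMUSG00000019932, chr10:97606879-97613692, 3 exons), best known as a proteoglycan of the cornea, ran from 1.24 CPM in CT-WD 3 to 19.3 in OE-WD 2. Its log2 fold change was 1.26 ± 0.62 on control diet, where the groups did not overlap, and 1.11 ± 0.60 on western diet, where they did.

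Comp and Thbs4 encode pentameric thrombospondins that bind collagen and organise its fibrils. Comp (ENSMUSG00000031849, chr8:70373558-70382066, 19 exons) was at 11.9, 2.09 and 5.56 CPM for libraries 1 to 3 of CT-CTD, at 35.2, 2.51 and 2.49 for those of CT-WD, at 21.0, 48.6, 37.6 and 17.0 for libraries 1 to 4 of OE-CTD and at 28.3, 69.3, 43.6 and 15.3 for those of OE-WD. OE-CTD libraries were all above the CT-CTD libraries, and CT-WD 1 was above OE-WD 1 and 4. The log2 fold change of Comp was 2.25 ± 0.83 on control diet and 1.52 ± 0.78 on western diet, with edgeR adjusted p = 0.183 and 0.341. Thbs4 (ENSMUSG00000021702, chr13:92751590-92794818, 22 exons), whose protein also lies at the myotendinous junction, was at 86.6, 54.3 and 69.7 CPM for libraries 1 to 3 of CT-CTD, at 133, 44.3 and 69.3 for those of CT-WD, at 144, 193, 174 and 112 for libraries 1 to 4 of OE-CTD and at 151, 267, 178 and 113 for those of OE-WD. The 4 OE-CTD libraries exceeded all CT-CTD libraries, and among the western diet libraries only CT-WD 1 and OE-WD 4 overlapped. Its group means were 70.2 ± 16.1 (SD, n = 3) in CT-CTD, 82.1 ± 45.7 (SD, n = 3) in CT-WD, 156 ± 35.4 (SD, n = 4) in OE-CTD and 177 ± 65.2 (SD, n = 4) in OE-WD. Thbs4 gave the smallest adjusted p-value of the members in both comparisons, at a log2 fold change of 1.15 ± 0.33 on control diet (edgeR adjusted p = 0.0842) and 1.11 ± 0.33 on western diet (edgeR adjusted p = 0.118).

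Col11a1 (ENSMUSG00000027966, chr3:114030540-114220718, 67 exons) encodes a chain of a fibrillar collagen that starts thin fibrils, and Col12a1 (ENSMUSG00000032332, chr9:79598991-79718831, 66 exons) a collagen that sits on the fibril surface and bridges fibrils. Col11a1 was at 1.23, 1.17 and 1.51 CPM for libraries 1 to 3 of CT-CTD, at 6.07, 0.435 and 0.578 for those of CT-WD, at 5.02, 7.32, 5.65 and 3.73 for libraries 1 to 4 of OE-CTD and at 4.32, 11.9, 5.87 and 3.54 for those of OE-WD. CT-CTD libraries were close together and all below the OE-CTD libraries, while CT-WD held the lowest libraries of all and 1 library among the OE values. Its log2 fold change was 2.06 ± 0.68 on control diet (edgeR adjusted p = 0.131) and 1.39 ± 0.63 on western diet (edgeR adjusted p = 0.278). Col12a1 ran from 2.22 CPM in CT-WD 2 to 23.9 in OE-WD 2, and OE-CTD 4 lay just under CT-CTD 1, so that the control diet groups overlapped. The log2 fold change of Col12a1 was 1.19 ± 0.61 on control diet and 1.0 ± 0.59 on western diet (edgeR adjusted p = 0.365 and 0.417). An antisense gene, 4930562D21Rik, overlaps Col12a1 and had 0 counts in every library.

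The comparison of genotypes on control diet asks what endothelial c-Myc goes with in mice without the diet challenge. The 10 members had positive log2 fold changes for OE-CTD against CT-CTD, from 0.23 to 2.25 with a median of 1.46, where the median over all genes tested was 0.00. A gene was called at a fold change over 1.5 with an edgeR adjusted p-value under 0.05, or separately with an unadjusted p-value under 0.05. At the adjusted level 0 of 10 members were called, by DESeq2 and by limma on the FPKM values too, where 1.91% of the 15458 genes were called by edgeR. At an unadjusted p-value under 0.05, edgeR called 6 of 10 members (Tnmd, Fmod, Comp, Thbs4, Chad and Col11a1) against 7.12% of all genes, DESeq2 called 5 against 4.48% of the genes it gave a p-value, and limma called 5 on log2(FPKM + 1) against 2.15% and 6 on log2(FPKM + 0.1) against 6.32%. For 7 of 10 members (all but Scx, Mkx and Col12a1) every OE-CTD library was above every CT-CTD library, as for 8.73% of all genes. Without CT-CTD 2 the unadjusted edgeR count was 2 (Thbs4 and Col11a1) against 6.20% of all genes, and without CT-CTD 3, OE-CTD 2 or OE-CTD 3 it was 4 against 5.77 to 6.09%. Without CT-CTD 3 those 4 included Scx. Without CT-WD 2 the adjusted count was 1 (Thbs4) against 2.09%. Without the filter on low counts the adjusted count was 6 of 10 against 2.04% of all genes, and in a model of these 7 libraries alone it was 6 against 2.96%. The labels do not state that each library is a separate animal, so that p-values measure only the spread between these samples.

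The comparison of genotypes on western diet gave log2 fold changes from 0.10 to 1.52 with a median of 1.29, where the median over all genes was 0.01. At the adjusted level edgeR called 0 of 10 members, as did DESeq2 and limma, against 0.563% of all genes by edgeR. At an unadjusted p-value under 0.05, edgeR called 2 (Thbs4 and Col11a1) against 5.74% of all genes, DESeq2 called 2 against 3.61%, and limma called 6 on log2(FPKM + 1) against 1.71% and 9 on log2(FPKM + 0.1) against 5.62%. With the replicate number as a block, edgeR called 9 against 5.07%, at a median log2 fold change of 2.13. That block joins OE-WD and CT-WD libraries that share only a number. It also takes OE-WD 4, with no CT-WD library of its number, out of the estimate. Without the filter on low counts edgeR called 9 against 5.06%. At the adjusted level these 2 settings called 0 and 1 of the members, against 0.00647% and 1.44% of all genes. In 0 of 10 members were the western diet groups separate, and 6.06% of all genes had every OE-WD library above every CT-WD library. Without CT-WD 1 the edgeR count at the adjusted level was 9 of 10 (all but Scx), with 5.72% of the 15828 genes then tested, and the median log2 fold change of the members was 3.37. Against the 1.29 of all 14 libraries, the median fell to 0.83 without CT-WD 2, 0.85 without CT-WD 3 and 0.87 without OE-WD 2. It was 1.44 without OE-WD 1, 1.49 without OE-WD 4 and between 1.26 and 1.29 for the remaining single omissions. Without CT-WD 1, Chad had a log2 fold change of 4.42 (edgeR adjusted p = 0.00572, with 0.00275 to 0.795 over all settings tried), Comp was at 3.97 and Scx at 0.03. Also without CT-WD 1, Col11a1 was at 3.65, Mkx at 3.58, Fmod at 3.47, Kera at 3.26, Tnmd at 3.13, Col12a1 at 2.76 and Thbs4 at 1.64. That model rests on CT-WD 2 and 3 for its CT-WD mean. The unadjusted count was 9 without CT-WD 1 against 11.8% of all genes, 5 without OE-WD 4 against 5.80%, and 1 without CT-CTD 3, CT-WD 2, CT-WD 3, OE-CTD 1, OE-CTD 3, OE-WD 2 or OE-WD 3, against 3.75 to 5.77%. For OE-CTD against CT-CTD, whose libraries were all kept, omission of CT-WD 1 gave 6 of 10 at the adjusted level (Tnmd, Fmod, Comp, Thbs4, Kera and Col11a1), against 2.78% of all genes.

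**Figure D2:**
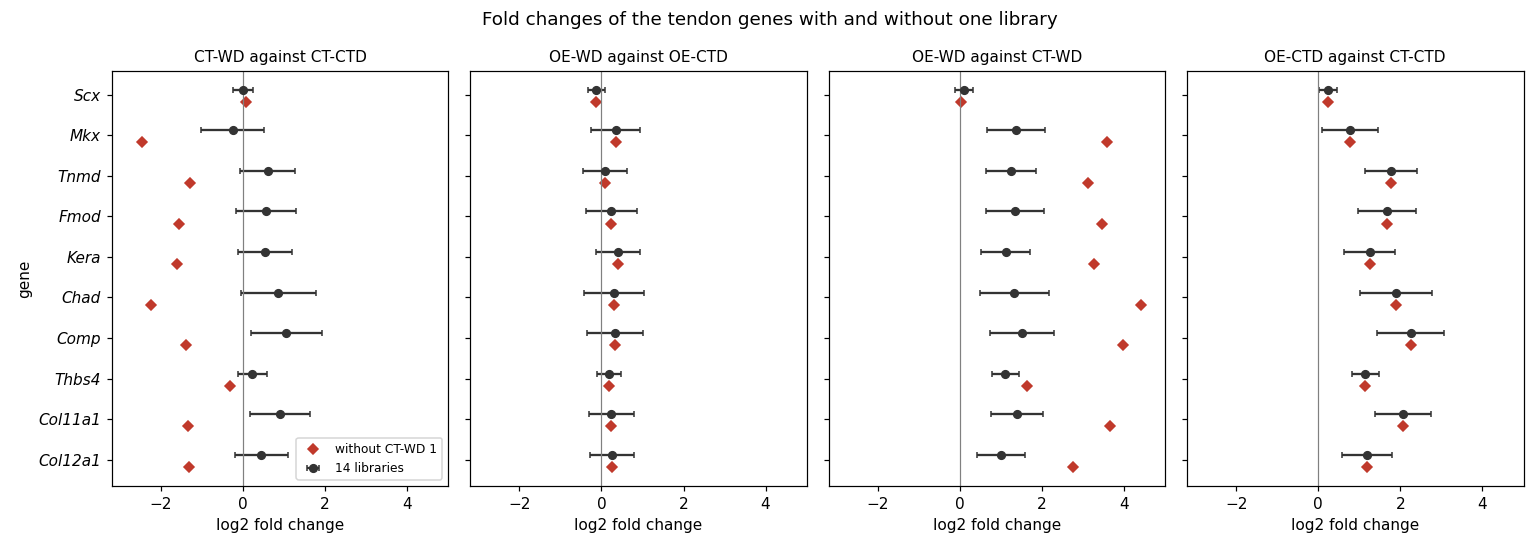
Log2 fold change of each tendon gene from edgeR in 4 comparisons, with 14 libraries (circles, bars of 1 standard error) and without CT-WD 1 (diamonds). Leaving out CT-WD 1 moves the members other than Scx to higher values in OE-WD against CT-WD and to lower values in CT-WD against CT-CTD.

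The diet was compared within each genotype. For CT-WD against CT-CTD the log2 fold changes ran from -0.25 (Mkx) to 1.06 (Comp), with a median of 0.55 and all genes at 0.01. edgeR called 0 of 10 members at the adjusted level and 0 at an unadjusted p-value under 0.05, where 0% and 3.05% of all genes were called, and DESeq2 and limma called 0 at either level. With the CT replicate number as a block, the median was 0.09, Mkx was at -0.71, and Fmod and Kera turned negative. Leaving out CT-WD 1 turned the direction: the median was -1.37, 1 of 10 members was positive, 7 of 10 were called at an unadjusted p-value under 0.05 and 0 at the adjusted level, against 5.43% and 0.259% of all genes. For OE-WD against OE-CTD the log2 fold changes ran from -0.12 to 0.40 with a median of 0.25, and edgeR called 0 of 10 at the adjusted level and 0 at an unadjusted p-value under 0.05, against 0.00647% and 1.37% of all genes, as DESeq2 and limma called 0. Without OE-WD 2, the highest library, the fold changes of Tnmd, Fmod, Comp, Thbs4, Chad, Col11a1 and Col12a1 turned negative, with Tnmd at -0.32. The diet by genotype interaction, which tests whether the diet difference was unlike in OE and CT, had a median of -0.25 over the members and called 0 of 10 at both levels in edgeR, DESeq2 and limma, against 0% (adjusted) and 2.7% (unadjusted) of all genes by edgeR. Without CT-WD 1 its median was 1.65, and 7 of 10 were called at an unadjusted p-value under 0.05, against 4.91% of all genes. These comparisons share libraries: each group enters 2 of the 4, so that a library such as CT-WD 1 bears on both comparisons that use its group.

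The genotype difference averaged over both diets, a comparison added after the data were seen, used all 8 OE and 6 CT libraries. It takes all 14 libraries as separate. CT libraries of the same number deviated together across the diets, with correlations of 0.123 to 0.385. OE libraries of the same number did so too, with 0.0711 to 0.338, so the p-values of the averaged comparison may be too small. Of the 10 members, 3 rose by this test. Tnmd was higher in OE by a log2 fold change of 1.51 ± 0.44 (edgeR adjusted p = 0.0441), Thbs4 by 1.13 ± 0.23 (edgeR adjusted p = 0.00940) and Col11a1 by 1.73 ± 0.46 (edgeR adjusted p = 0.0319). For each of the 3, CT-WD 1 was the only CT library inside the OE range. Thbs4 was called in the averaged comparison under each setting run. Tnmd was not called without CT-CTD 2, CT-CTD 3, CT-WD 2, CT-WD 3, OE-CTD 1, OE-CTD 2, OE-CTD 3, OE-WD 2 or OE-WD 3, and Col11a1 not without CT-CTD 1 or any of these but OE-CTD 1, so that the count was 1 in 8 of the single omissions, against 2.11 to 2.90% of all genes. With library totals as the only scaling neither was called, and Col11a1 was not called by limma on log2(FPKM + 1). With the replicate number as a block Tnmd and Col11a1 were not called either (edgeR adjusted p = 0.0834 and 0.0742). That block joins OE and CT libraries that share only a number, and takes OE-CTD 4 and OE-WD 4 out of the estimate. The median log2 fold change of the members was 1.88 with it and 1.35 without it. Of 30 adjusted calls of genes in the lists below, that block left 3: Col22a1, Col19a1 and Plin4 in this comparison. Fold changes of the calls lost moved either way. In this comparison Cilp2 was at 2.44 with the block and 1.79 without it, and Tgfb1 at 0.50 and 0.66, on the log2 scale. Comp, at 1.88 ± 0.57, had edgeR adjusted p = 0.0520. The 3 of 10 members stood against 3.64% of all genes, and at an unadjusted p-value under 0.05 the count was 9 of 10 (all but Scx) against 7.18%. DESeq2 called 5 members at the adjusted level against 4.49% of the genes with an adjusted p-value, and edgeR called 9 without CT-WD 1, where 7.02% of all genes were called. Without OE-CTD 4 and OE-WD 4, whose composition differed, edgeR called 4 for the averaged comparison (4.38% of all genes), 1 (Thbs4) for OE-CTD against CT-CTD (2.21%) and 0 for OE-WD against CT-WD (0.026%).

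Other genes known from tendon, its sheath or its insertion were taken as a list, whose median followed the index. Of 20 such genes 18 were tested, and Gdf5 and Cnmd were too low. At an unadjusted p-value under 0.05, 9 were higher and 0 lower in OE-CTD against CT-CTD, and 7 were higher and 1 lower in OE-WD against CT-WD, with median log2 fold changes of 0.87 and 0.70 in these 2 comparisons, against medians of 0.00 and 0.01 over all genes. Of all genes, 4.94% and 3.32% were higher at this level in these 2 comparisons. These shares hold for the lists below too, whose medians are given in the same order. At the adjusted level the counts were 0 and 1, against 1.91% and 0.563% of all genes. The 1 was Col22a1, a collagen of the myotendinous junction, which rose from 17.7 ± 4.67 CPM (SD, n = 3) in CT-WD to 32.1 ± 3.51 (SD, n = 4) in OE-WD, a log2 fold change of 0.86 (edgeR adjusted p = 0.0193). That call held in 10 of 14 omissions of a single library (not without CT-WD 2, CT-WD 3, OE-WD 2 or OE-WD 3). It was lost with library totals as the only scaling, with only the 2 groups in the model, and without OE-CTD 4 and OE-WD 4. With the replicate number as a block it was also lost (edgeR adjusted p = 0.241), at a log2 fold change of 0.88. In the averaged comparison, where 3.64% of all genes were called, 6 of the 18 rose: Tnc, Cilp, Cilp2, Cpxm2, Col22a1 and Egr2. Over single omissions the averaged call held in 14 of 14 for Col22a1 and 11 of 14 (not without CT-WD 2, CT-WD 3 or OE-WD 2) for Cilp, and in 4 to 6 of 14 for the other 4 genes. Library totals ended the averaged calls of Tnc, Cilp2, Cpxm2 and Egr2, and limma on log2(FPKM + 1) did not call Tnc, Cpxm2, Egr2 or Col22a1. The most abundant of the list in FPKM were Tppp3 (32.4), a marker of the tendon sheath, Angptl7 (18.9), Egr1 (11), an immediate-early factor that acts on collagen genes, and Cilp (10.7). Tppp3 followed the index weakly (r = 0.142 over 14 libraries) and Angptl7 closely (r = 0.839). The list's median in each library had r = 0.951 with the index (Spearman 0.965) over 14 libraries and r = 0.951 within the 8 OE libraries. The genes of a library share its depth and scaling.

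Among the other small leucine-rich proteoglycans and relatives, 11 of 15 were tested, and Dcn (49.3 FPKM), Prelp (16.4), Ogn (12.5) and Bgn (10.2) were most abundant. edgeR called 0 at the adjusted level in either genotype comparison, and 6 and 2 were higher at an unadjusted p-value under 0.05 on control and western diet, with medians of 0.71 and 0.45. Averaged over both diets, Dcn, Bgn, Lum and Prelp rose, a call that held in 14 of 14 single omissions for Bgn and for Prelp and in 5 of 14 for Dcn and for Lum. Library totals ended the calls of Dcn and Lum, and limma on log2(FPKM + 1) did not call Lum. With the replicate number as a block none of the 4 was called (edgeR adjusted p = 0.0515 to 0.0649). Dcn was at 158 ± 32.5 CPM (SD, n = 3) in CT-CTD and 305 ± 74.0 (SD, n = 4) in OE-CTD. The other 3 thrombospondins, Thbs1 (3.20 FPKM), Thbs2 (2.99) and Thbs3 (1.64), were all higher on control diet at an unadjusted p-value under 0.05 and 1 (Thbs2) on western diet, with 0 by the adjusted edgeR test in both and Thbs2 alone called in the averaged comparison, a call that held in 5 of 14 single omissions and was lost with library totals. Their medians were 1.16 and 0.60.

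The 10 fibrillar collagen genes other than Col11a1, all tested, were led by Col1a1 (37.2 FPKM), Col1a2 (23.5), Col3a1 (21.2) and Col5a3 (5.07). On control diet 2 rose at the adjusted level: Col5a1, a regulator of fibril width, from 22.7 ± 1.67 CPM (SD, n = 3) to 51.7 ± 4.70 (SD, n = 4), a log2 fold change of 1.19 (edgeR adjusted p = 0.0223), and Col5a3 by 0.73 (edgeR adjusted p = 0.0167). The call held in 9 of 14 single omissions (not without CT-CTD 1, CT-CTD 2, CT-CTD 3, OE-CTD 2 or OE-CTD 3) for Col5a1 and in 10 of 14 (not without CT-CTD 2, CT-CTD 3, OE-CTD 2 or OE-CTD 3) for Col5a3. At an unadjusted p-value under 0.05 the counts were 7 on control diet and 4 on western diet, with medians of 1.11 and 0.72, and edgeR called 0 at the adjusted level on western diet. Col1a1 and Col1a2, the chains of the main tendon collagen, had r of 0.964 and 0.969 with the tendon index. Col1a1, Col1a2, Col3a1, Col5a1 and Col5a2 rose in the averaged comparison, and over single omissions this held in 14 of 14 for Col5a1, 10 of 14 (not without CT-CTD 2, CT-CTD 3, CT-WD 2 or OE-WD 2) for Col1a1, 7 of 14 for Col3a1, 5 of 14 for Col1a2 and 4 of 14 for Col5a2. With library totals Col1a2 and Col5a2 were not called, and limma on log2(FPKM + 1) did not call Col5a2. Of the 8 fibril-associated collagens (FACIT) other than Col12a1, led by Col22a1 (3.03 FPKM), Col16a1 (2.05), Col20a1 (1.48) and Col14a1 (1.42), 3 were higher at an unadjusted p-value under 0.05 on control diet and 0 at the adjusted level. On western diet Col22a1 rose and Col19a1 fell, with a log2 fold change of -2.55 (edgeR adjusted p = 0.0481) that DESeq2, limma, library totals, a model of these 2 groups and a model without OE-CTD 4 and OE-WD 4 did not call and that held in 1 of 14 single omissions, the one without CT-WD 1. In the averaged comparison Col16a1 rose and Col19a1 fell, both in 14 of 14 single omissions, although limma on log2(FPKM + 1) did not call Col19a1, and the medians of the list were 0.47 and 0.37.

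Tgf-beta ligands, Gdf ligands, their receptors and partners, and other factors that act on tendon cells were taken as a list: 16 of 20 were tested, with medians of 0.04 and 0.26. The list's median had r = 0.348 with the index over 14 libraries, and 0.0966 without CT-WD 2 and 3. Mstn was the most abundant, at 35.0 FPKM. On control diet Tgfb1, the ligand that drives matrix production, rose from 7.21 ± 1.36 CPM (SD, n = 3) to 13.6 ± 2.69 (SD, n = 4), a log2 fold change of 0.91 (edgeR adjusted p = 0.0253). Mstn, the myostatin gene of muscle fibres, fell from 118 ± 21.1 CPM (SD, n = 3) to 64.8 ± 8.53 (SD, n = 4), a log2 fold change of -0.87 (edgeR adjusted p = 0.00575). The call held in 10 of 14 single omissions (not without CT-CTD 1, CT-CTD 2, CT-CTD 3 or OE-CTD 3) for Tgfb1 and in 14 of 14 for Mstn. Tgfb1 also rose in the averaged comparison, in 13 of 14 single omissions (not without OE-WD 4), and was not called without OE-CTD 4 and OE-WD 4 together. In neither comparison did limma on log2(FPKM + 1) call it. At an unadjusted p-value under 0.05, 1 of the 16 was higher and 2 were lower on control diet. On western diet edgeR called 0 of the 16 at the adjusted level and 0 at an unadjusted p-value under 0.05.

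Markers of other cells were read beside the tendon genes as whole lists, and their part in the differences above was not tested. Interstitial fibroblast markers, 10 of 10 tested with none at 0 and Gsn highest in FPKM, had their sum at 849.9, 683 and 613 CPM for libraries 1 to 3 of CT-CTD, at 1290, 736 and 759 for those of CT-WD, at 1131, 1340, 1302 and 781 for libraries 1 to 4 of OE-CTD and at 1078, 1720, 1221 and 828 for those of OE-WD. Gsn made up most of these sums, with 968 of the 1290 CPM in CT-WD 1. The sums were high in the same libraries as the tendon genes, CT-WD 1 included, but CT-CTD 1 was above OE-CTD 4 and OE-WD 4. The median of the fibroblast list had r = 0.880 with the index. At an unadjusted p-value under 0.05, 6 were higher on control diet and 0 on western diet, against 4.94% and 3.32% of all genes, with medians of 0.73 and 0.32. At the adjusted level Pi16 and Mfap5 rose on control diet, by log2 fold changes of 0.66 and 0.78 (edgeR adjusted p = 0.0425 and 0.0203). These calls held in 6 of 14 and 10 of 14 single omissions, and were lost without CT-CTD 2, CT-CTD 3, OE-CTD 2 or OE-CTD 3 for both and without CT-CTD 1, OE-CTD 1, OE-WD 1 or OE-WD 3 for Pi16. Library totals ended both calls, and limma did not call Pi16. In the averaged comparison Dpt and Lum rose, in 4 of 14 single omissions for Dpt and not with library totals or by limma on log2(FPKM + 1), and Lum stands both in this list and among the proteoglycans. Epidermis markers, 9 of 10 tested with Krt5 highest in FPKM and none at 0 throughout, had their sum at 50.5, 19.3 and 25.6 CPM for libraries 1 to 3 of CT-CTD, at 108, 22.2 and 37.0 for those of CT-WD, at 32.8, 49.3, 49.7 and 16.1 for libraries 1 to 4 of OE-CTD and at 27.9, 101, 149 and 55.8 for those of OE-WD. CT-WD 1, OE-WD 2 and OE-WD 3 held most, the list's median had r = 0.651 with the index, and edgeR called 0 in either genotype comparison at the adjusted level, with 1 and 0 at an unadjusted p-value under 0.05 and medians of 0.68 and 0.86. Cartilage or bone markers were low: 4 of 16 were tested, Sox9 was the most abundant in FPKM, Matn1 and Snorc had 0 counts in every library, sums were 4.42 to 9.65 CPM, medians were 0.25 and 0.02, and r with the index was 0.432, with 0 called at the adjusted level and 1 and 0 higher at an unadjusted p-value under 0.05. Macrophage markers (9 of 9 tested, Lyz2 highest in FPKM, sums of 46.6 to 139 CPM) had r = 0.789 and medians of 0.87 and 0.10. At an unadjusted p-value under 0.05, 7 were higher on control diet and 0 on western diet, against 4.94% and 3.32% of all genes, and 0 were called at the adjusted level.

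**Figure D3:**
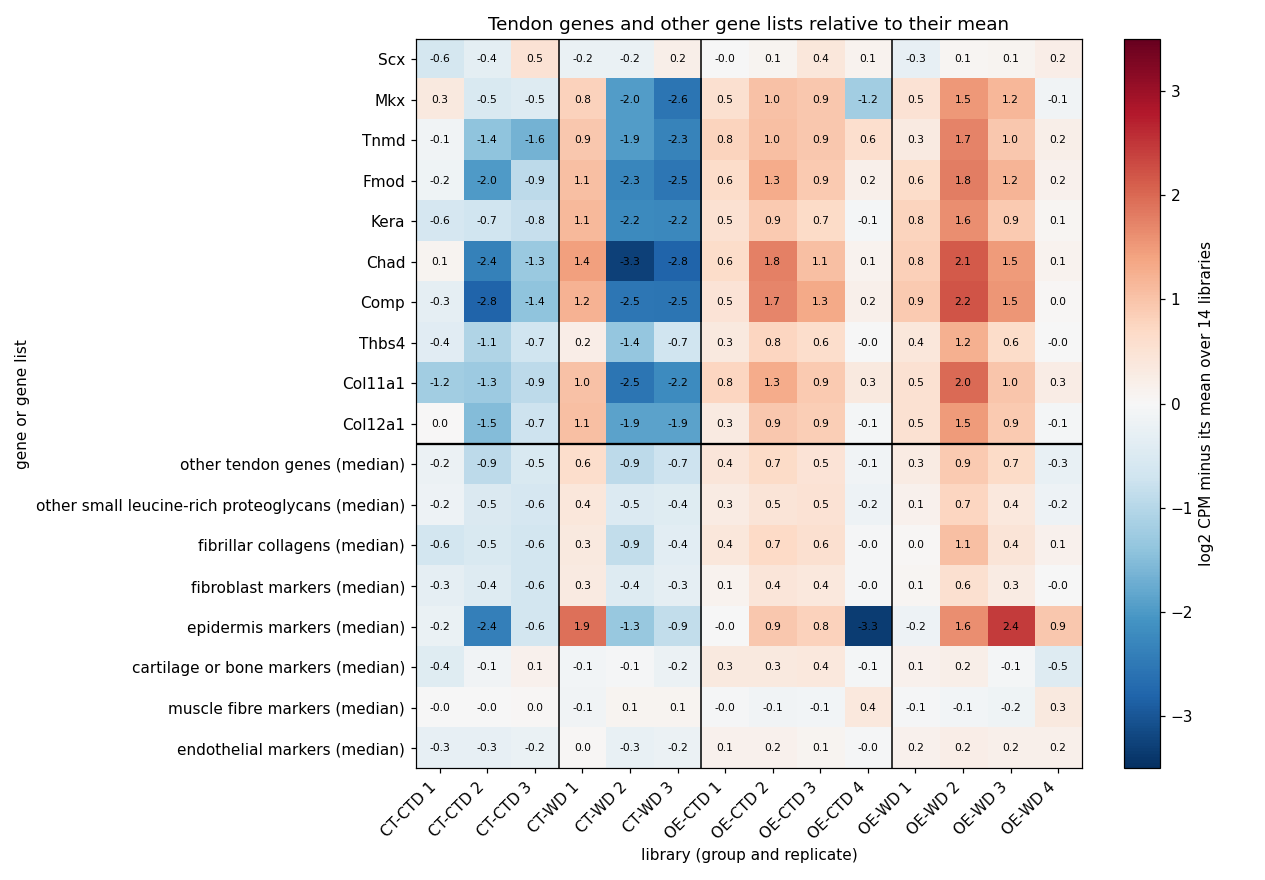
Log2 CPM minus its mean over the 14 libraries for each tendon gene, and the median of the same over other gene lists, with a library in each column and vertical lines between groups. The members other than Scx share their high and low libraries, and the muscle fibre markers are highest in OE-CTD 4 and OE-WD 4.

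Markers of endothelial cells, in which the transgene is driven, had 0 of 10 called in either genotype comparison at both levels by edgeR. Their medians were 0.31 and 0.38, both under 0.585, the log2 of the fold change needed for a call. Their summed CPM was nonetheless higher in every OE library than in every CT library on the same diet. The sums were 361 to 381 in CT-CTD and 426 to 479 in OE-CTD. On western diet they were 382 to 447 in CT-WD and 481 to 506 in OE-WD. The difference in these sums was not tested. The list's median had r = 0.839 with the index over all libraries, or 0.573 within the 8 OE libraries. Muscle fibre markers had 0 of 12 called in both genotype comparisons, with medians of 0.05 and -0.02. Their r with the index was -0.408 (Spearman -0.789) over all libraries, or -0.779 within the 8 OE libraries. Slow fibre markers (10 of 10 tested, 4873 to 7723 CPM, Myl3 highest in FPKM) had r = -0.0979, or 0.193 without CT-WD 2 and 3 and -0.589 within the 8 OE libraries, medians of 0.24 and -0.03 and 0 called at both levels. Fast fibre markers (10 of 10, 108800 to 153780 CPM, Tnnt3 highest in FPKM) had r = -0.590, or -0.765 within the 8 OE libraries, and medians of 0.03 and -0.08, with 0 at the adjusted level and 1 lower on control diet at an unadjusted p-value under 0.05. Schwann cell markers (8 of 8 tested) had r = 0.442, or 0.807 within the 8 OE libraries, and medians of 0.14 and 0.21, with 0 called at both levels. Smooth muscle or pericyte markers (7 of 7, 393 to 514 CPM, Rgs5 highest in FPKM) had r = 0.343 (Spearman 0.174), or -0.0445 within the 8 OE libraries, and medians of 0.17 and 0.11, with 0 called at both levels. Adipocyte markers (8 of 9, 325 to 720 CPM, Plin4 highest in FPKM) had r = 0.659, or 0.297 without CT-WD 2 and 3, and medians of -0.39 and 0.65, with 0 at the adjusted level and 1 higher and 1 lower in each genotype comparison at an unadjusted p-value under 0.05. Plin4 made up most of each sum, so the sums do not stand for the whole adipocyte list. In CT-WD 2 it was 678 of 720 CPM, where the list's median of centred log2 CPM was -0.99. In the averaged comparison Lep rose by a log2 fold change of 2.25 (edgeR adjusted p = 0.0136) in 14 of 14 single omissions, and Plin4 fell by a log2 fold change of -0.63 (edgeR adjusted p = 0.0102) in 12 of 14 (not without CT-CTD 1 or CT-WD 2). Red blood cell markers (4 of 5, 125 to 382 CPM, Hba-a1 highest in FPKM) had r = -0.140 and medians of -0.03 and -0.09, with 0 called at both levels.

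Beyond the tendon genes, the index went with the main axis of variation of the libraries. The first principal component of the other tested genes took 27.6% of the variance and had r = 0.963 with the index (Spearman 0.921, n = 14), 0.947 without CT-WD 2 and 3, 0.849 within the 8 OE libraries and 0.956 within the 6 CT libraries. Among 10510 tested genes with a mean of at least 1 FPKM, 369 (3.51%) had r over 0.8 with the index and 355 (3.38%) had r under -0.8. The 10 most alike were Thbs2 (0.982), Antxr1 (0.977), Cilp2 (0.977), Col1a2 (0.969), Prelp (0.967), Tgfbr2 (0.966), Col1a1 (0.964), Dab2 (0.964), Sfrp4 (0.962) and 1500015O10Rik (0.962), each r over the same 14 libraries. Thbs2 ran from 3.69 to 39.9 CPM and Cilp2 from 1.79 to 58.2.

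Promoters are shown for members that moved together, since Scx belongs to the factors that bind the E-box CANNTG, a motif that reads the same on both strands. RefSeq promoters on GRCm38.p6 were found for 6 of the 10 members (Tnmd, Fmod, Thbs4, Chad, Kera and Col11a1), and none was in the table for Scx, Mkx, Comp and Col12a1. In the 250 bases before the RefSeq start, Fmod, Thbs4 and Chad held 1 E-box each and Tnmd and Col11a1 held 0, while 66.2% of 32851 promoters held at least 1 in a window of that length. The window of Kera lay inside the gene as placed above and is left out, and that of Tnmd had 28 bases inside its gene. The sequences run 5′ to 3′ on the gene's strand and capitals mark the E-box, for Fmod at chr1:134037004-134037253 (plus strand), Chad at chr11:94564797-94565046 (plus strand) and Thbs4 at chr13:92794819-92795068 (minus strand), and for Tnmd, which held none, at chrX:133850758-133850979 (plus strand, 222 bases).
Fmod: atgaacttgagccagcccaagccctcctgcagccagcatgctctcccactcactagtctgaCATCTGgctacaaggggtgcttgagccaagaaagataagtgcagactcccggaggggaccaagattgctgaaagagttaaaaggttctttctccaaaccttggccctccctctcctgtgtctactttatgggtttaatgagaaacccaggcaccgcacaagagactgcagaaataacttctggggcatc
Chad: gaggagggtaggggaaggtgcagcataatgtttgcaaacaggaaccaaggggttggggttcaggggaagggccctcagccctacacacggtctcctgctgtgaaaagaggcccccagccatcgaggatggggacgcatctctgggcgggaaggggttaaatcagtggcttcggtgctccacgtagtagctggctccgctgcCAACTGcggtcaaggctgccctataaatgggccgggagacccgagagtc
Thbs4: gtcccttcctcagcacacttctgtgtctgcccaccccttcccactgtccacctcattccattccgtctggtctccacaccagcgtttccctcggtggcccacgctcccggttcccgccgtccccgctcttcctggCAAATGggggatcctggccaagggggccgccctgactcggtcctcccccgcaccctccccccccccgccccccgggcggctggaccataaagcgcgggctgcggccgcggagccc
Tnmd: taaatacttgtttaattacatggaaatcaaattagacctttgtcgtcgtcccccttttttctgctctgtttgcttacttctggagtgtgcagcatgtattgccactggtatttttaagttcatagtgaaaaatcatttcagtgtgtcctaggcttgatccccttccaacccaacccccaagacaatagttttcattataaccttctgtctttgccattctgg
A match describes these letters and is not evidence that a factor binds there.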

How the data were processed

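The authors deposited raw counts of reads per Ensembl gene for the 14 libraries, of RNA selected with poly-T beads. The authors also deposited FPKM, per gene length and per a library total that was 79.9 to 98.0% of the summed counts, so the FPKM include a scaling for each library. The submitters' processing notes list HISAT2 2.0.5, featureCounts 1.5.0-p3 and mm10, and the strand setting is not given in the sources used here. Libraries were grouped by their labels, and all 14 were used.

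Tests on the counts used edgeR 4.0.16 (R 4.3.3): TMM scaling, filterByExpr, a mean for each of the 4 groups, the quasi-likelihood test, and Benjamini-Hochberg adjustment over the 15458 genes tested within each comparison. Summed counts were 21833839 to 28519159 per library, and precision was limited by the spread between libraries. Between replicates, chi-square per degree of freedom was 7.50 to 48.1, above counting noise. Log2 CPM for the index and correlations used a prior count of 2. Alternatives were no filter, RLE scaling, library totals, DESeq2 1.42.0, limma 3.58.1 on log2 FPKM with 1 or 0.1 added, only the groups compared, replicate number as a block, leaving out each library, and, chosen after seeing the data, the averaged comparison and leaving out both CT libraries numbered 1 or both OE libraries numbered 4. The procedure was tested on simulated data. Python 3.11.15 with pandas 2.3.3 and matplotlib 3.10.9 read the annotation and promoters and drew the plots.

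Members were matched by gene name in both tables. The members and lists were chosen with earlier results of these data known. Named genes are the 10 members, up to 4 genes of highest mean FPKM and every gene called at the adjusted level from each list of other matrix or tendon genes, and the 10 genes of highest r with the index. The lists were other tendon genes, proteoglycans, thrombospondins, fibrillar and FACIT collagens, Tgf-beta and related factors, and markers of muscle, slow and fast fibres, fibroblasts, cartilage or bone, adipocytes, epidermis, Schwann cells, endothelium, smooth muscle or pericytes, macrophages and red blood cells. A gene can stand in several lists and is then counted in each. Col14a1 and Col22a1 are both in the other tendon genes and in the FACIT collagens. Col2a1 is both in the fibrillar collagens and in the cartilage or bone markers. Genes from the marker lists are named as the most abundant of their list, as at 0, or because they were called, after their values were seen. Coordinates are those of the count table, the same as GENCODE M21 on GRCm38 for all members but Mkx.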

Additional observations from a re-analysis of the deposited data

How the results depend on the processing

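Of 2414 values recomputed under other settings, 1965 kept their direction and side of the threshold or moved within the spread or within 1.5 times a count, 90 turned direction, 76 passed the threshold where the reported value did not, 235 lost it and 48 were counts that moved by more. No fold change of OE-CTD against CT-CTD, OE-WD against CT-WD or the averaged comparison turned direction under any setting run, and none of the fold changes that turned had passed the adjusted test. The values lost are list genes and Tnmd and Col11a1 in the averaged comparison. The cause was not tested for any change listed here, except that leaving out a library or a filter changes the samples or genes tested. Depth limits mainly Mkx and Col11a1 in the lowest libraries. Scaling choice moved the median of all genes by at most 0.0414 on the log2 scale. The tendon index of each group stayed within the spread with a prior count of 0.5, as a mean over the 10 members and on log2(FPKM + 0.1), and was not run under other settings.

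The reported counts, at the adjusted and the unadjusted level, were 0 and 6 for OE-CTD against CT-CTD, 0 and 2 for OE-WD against CT-WD, 3 and 9 for the averaged comparison and 0 at both for the rest. Percentages beside the counts below are shares of all genes called under the same setting. Without a low-count filter, the members called were 6 for OE-CTD against CT-CTD (adjusted, 2.04%), 1 for OE-WD against CT-WD (adjusted, 1.44%), 9 for OE-WD against CT-WD (unadjusted, 5.06%), 1 for CT-WD against CT-CTD (unadjusted, 2.98%) and 8 for the averaged comparison (adjusted, 2.72%). With library totals only, the members called were 1 for OE-WD against CT-WD (unadjusted, 5.53%) and 1 for the averaged comparison (adjusted, 2.84%). There, for CT-WD against CT-CTD the log2 fold change of Scx was -0.0399. With DESeq2, the members called were 5 for the averaged comparison (adjusted, 4.49%). With limma on log2(FPKM + 1), the members called were 6 for OE-WD against CT-WD (unadjusted, 1.71%) and 5 for the averaged comparison (adjusted, 1.22%). There, for CT-WD against CT-CTD the log2 fold changes of Fmod, Chad and Kera were -0.18, -0.0584 and -0.0739, and for OE-WD against OE-CTD the log2 fold change of Tnmd was -0.0241, and for the interaction the log2 fold changes of Fmod, Thbs4, Chad, Kera and Col12a1 were 0.36, 0.0407, 0.29, 0.37 and 0.0510. With limma on log2(FPKM + 0.1), the members called were 9 for OE-WD against CT-WD (unadjusted, 5.62%) and 7 for the averaged comparison (adjusted, 3.19%). There, for CT-WD against CT-CTD the log2 fold changes of Tnmd, Fmod, Chad, Kera and Col12a1 were -0.0511, -0.22, -0.33, -0.37 and -0.0484, and for OE-WD against OE-CTD the log2 fold change of Tnmd was -0.0350, and for the interaction the log2 fold changes of Tnmd, Fmod, Comp, Thbs4, Chad, Kera and Col12a1 were 0.0161, 0.39, 0.0225, 0.0427, 0.57, 0.71 and 0.24. With only the groups of the comparison, the members called were 6 for OE-CTD against CT-CTD (adjusted, 2.96%) and 1 for OE-WD against CT-WD (unadjusted, 5.14%). Without both CT libraries numbered 1, chosen after seeing the data, the members called were 7 for OE-CTD against CT-CTD (adjusted, 3.5%), 9 for OE-WD against CT-WD (adjusted, 6.35%), 9 for OE-WD against CT-WD (unadjusted, 12.2%), 3 for CT-WD against CT-CTD (unadjusted, 5.05%), 4 for the interaction (unadjusted, 4.74%) and 9 for the averaged comparison (adjusted, 8.25%). There, for CT-WD against CT-CTD the log2 fold changes of Tnmd, Scx, Fmod, Comp, Thbs4, Chad, Kera, Col11a1 and Col12a1 were -0.64, -0.13, -1.04, -0.62, -0.13, -1.33, -1.55, -1.39 and -0.84, and for the interaction the log2 fold changes of Tnmd, Scx, Fmod, Comp, Thbs4, Chad, Kera, Col11a1 and Col12a1 were 0.73, 0.0115, 1.29, 0.95, 0.31, 1.63, 1.95, 1.63 and 1.10. Without both OE libraries numbered 4, also chosen after seeing the data, the members called were 1 for OE-CTD against CT-CTD (adjusted, 2.21%) and 4 for OE-WD against CT-WD (unadjusted, 5.95%). RLE scaling moved no count by more than 1.5 times and turned no direction of a fold change.

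Replicate numbers were checked as pairs by the correlation, across genes, of how same-numbered libraries deviate from their groups. These were 0.385, 0.123 and 0.203 between the CT diet groups, for OE-WD and OE-CTD 0.0711, 0.138, 0.142 and 0.338, for OE-WD and CT-WD -0.230, -0.158 and -0.0647 and for OE-CTD and CT-CTD 0.0465, -0.113 and -0.122. The CT numbers were taken as pairs. Between the OE diet groups the values were positive too and overlapped those of CT, with number 4 highest. The OE numbers were not taken as pairs. In the genotype comparisons the libraries share only a number. With the block, OE-CTD 4 and OE-WD 4 have no CT library of their number and do not enter the estimate of those comparisons. With replicate number as a block, the members called were 9 for OE-WD against CT-WD (unadjusted, 5.07%) and 1 for the averaged comparison (adjusted, 1.31%), and for CT-WD against CT-CTD the log2 fold changes of Fmod and Kera were -0.18 and -0.0877, and for OE-WD against OE-CTD the log2 fold change of Tnmd was -0.0180, and for the interaction the log2 fold changes of Fmod, Thbs4, Chad, Kera and Col12a1 were 0.36, 0.0330, 0.11, 0.44 and 0.20. Of 30 calls of genes in the other lists, 3 were made with the block (Col22a1, Col19a1 and Plin4 in the averaged comparison), and the other 27 had adjusted p-values of 0.0515 to 0.241. Tnmd and Col11a1 in the averaged comparison had 0.0834 and 0.0742. The median log2 fold change of the members with the block was 0.0859 for CT-WD against CT-CTD, 1.7 for OE-CTD against CT-CTD and 2.13 for OE-WD against CT-WD.

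Leaving out 1 library at a time, the members called ranged from 0 to 6 for OE-CTD against CT-CTD (adjusted, 0.403 to 2.78%), 2 to 8 for OE-CTD against CT-CTD (unadjusted, 5.77 to 8.52%), 0 to 9 for OE-WD against CT-WD (adjusted, 0.0260 to 5.72%), 1 to 9 for OE-WD against CT-WD (unadjusted, 3.75 to 11.8%), 0 to 7 for CT-WD against CT-CTD (unadjusted, 2.60 to 5.43%), 0 to 7 for the interaction (unadjusted, 2.39 to 4.91%) and 1 to 9 for the averaged comparison (adjusted, 2.11 to 7.02%). The adjusted counts were highest without CT-WD 1, and without CT-WD 2 that of OE-CTD against CT-CTD was 1. The unadjusted count of OE-WD against CT-WD was 9 without CT-WD 1, 5 without OE-WD 4 and 1 without CT-CTD 3, CT-WD 2, CT-WD 3, OE-CTD 1, OE-CTD 3, OE-WD 2 or OE-WD 3, and that of OE-CTD against CT-CTD was 2 without CT-CTD 2. The averaged comparison gave 1 without CT-CTD 2, CT-CTD 3, CT-WD 2, CT-WD 3, OE-CTD 2, OE-CTD 3, OE-WD 2 or OE-WD 3. For CT-WD against CT-CTD, the log2 fold change ranged over single omissions from -0.22 to 0.41 for Scx, -2.46 to 0.23 for Mkx, -1.28 to 1.23 for Tnmd, -1.56 to 1.07 for Fmod, -1.61 to 1.01 for Kera, -2.24 to 1.75 for Chad, -1.39 to 1.82 for Comp, -0.31 to 0.53 for Thbs4, -1.35 to 1.38 for Col11a1 and -1.31 to 0.90 for Col12a1. For OE-WD against OE-CTD, the log2 fold change ranged over single omissions from -0.32 to 0.26 for Tnmd, -0.10 to 0.45 for Fmod, -0.12 to 0.67 for Chad, -0.0967 to 0.64 for Comp, -0.0793 to 0.35 for Thbs4, -0.25 to 0.44 for Col11a1 and -0.0569 to 0.47 for Col12a1. For the interaction, the log2 fold change ranged over single omissions from -0.53 to 0.0898 for Scx, -1.15 to 1.37 for Tnmd, -0.84 to 1.80 for Fmod, -0.61 to 2.01 for Kera, -1.46 to 2.53 for Chad, -1.50 to 1.72 for Comp, -0.34 to 0.49 for Thbs4, -1.16 to 1.59 for Col11a1 and -0.65 to 1.57 for Col12a1.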
